A study of Homo sapiens with 6 samples.

Results

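Serpins are a family of structurally related proteins, most of which inhibit serine or cysteine proteases. An inhibitory serpin offers an exposed loop to its protease as bait, and once the loop is cut it folds into the body of the serpin and traps the enzyme in a covalent complex. Clade A and several smaller clades are mainly secreted, clade B acts mainly inside cells, and some members inhibit no protease and instead carry hormones or assist protein folding. The family was examined in 786O cells, an established line from a human renal cell carcinoma, after lentiviral delivery of a short hairpin RNA (shRNA), a tool to deplete a chosen transcript.

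Members were the genes whose platform symbol is SERPIN, a clade letter from A to I and a number, read from probe sets annotated with exactly 1 gene. This gave 33 serpin genes of 18132 genes tested, measured by 65 probe sets. All 33 matched RefSeq, 31 as protein-coding genes and 2 as pseudogenes (SERPINA13P and SERPINB9P1). RefSeq lists 34 protein-coding genes of this naming pattern, and the other 3 were not analysed here. A gene with several probe sets, as 15 serpins had, was read from the probe set with the highest mean over the 6 arrays.

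Total RNA was read on 6 single-colour Affymetrix arrays: 3 of cells labelled shNC, the control shRNA, and 3 of cells labelled shPLEKHO1, with an shRNA against PLEKHO1. All cells were the same line with no other stated alteration, and the labels do not say how many different hairpins were used, or whether replicates were separate cultures. The p-values rest on array-to-array spread alone, possibly technical, and the number of arrays limits the precision. Median intensity per array lay between 55.7 and 57.1. PLEKHO1, the targeted gene, read 135, 143 and 126 with shNC against 110.3, 116 and 97.4 with shPLEKHO1, a fall of 19.9% (95% confidence interval 9.51% to 29.0%, limma adjusted p = 0.0123). For PLEKHO1 alone, an exact permutation test (two-sided) reached p = 0.1, its lower limit for 3 against 3 arrays.

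All 7 markers of the renal carcinoma line, such as PAX8 and KRT18, were above the median gene in intensity, with a summed intensity of 22181 to 22345 with shNC and 24486 to 24895 with shPLEKHO1. Most of that sum was VIM, at 14741 ± 282 and 15448 ± 84.2 (SD, n = 3), which did not pass. Of the 7 markers 3 rose, namely EPAS1 (0.54 ± 0.07), KRT18 (0.52 ± 0.06) and KRT8 (0.32 ± 0.04), and 2 fell, namely PAX2 (-0.33 ± 0.08) and PAX8 (-0.25 ± 0.06). All 25 measured markers of hepatocytes, leukocytes, endothelial cells, fibroblasts and keratinocytes were below the median gene, and of these LUM alone passed the test, with a rise of 0.81 ± 0.07 (log2, SE). Hepatocytes are the main source of plasma serpins in the body. The summed intensity of 6 hepatocyte markers was 133 to 138 with shNC and 131 to 148 with shPLEKHO1, and 0 of them passed.

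Each difference is shPLEKHO1 minus shNC in log2(intensity + 1), ± SE with n = 3 arrays per group, and a percent change is that log2 difference converted to a linear scale. "Rose" and "fell" mean an adjusted p under 0.05 in limma over all genes tested. Of the 33 serpins, 5 rose, 5 fell and 23 did not pass, a share of 30.3% against a background of 34.1% of all genes. By direction, 18.1% of all genes rose and 16% fell. Against all genes, the family as a whole thus did not stand out by its number of calls. That comparison was not matched for intensity: 26 of the 33 serpins lay below the median gene, and 3 of these passed. The 7 serpins above the median all passed, against 55.5% of all genes above it. The median log2 difference was -0.06 over the serpins and 0.01 over all genes. SERPINE2 and SERPINH1 fell most, followed by SERPINA6, SERPINB1 and SERPINB9. SERPINB8 and SERPINI1 rose most, followed by SERPINB7, SERPINA7 and SERPINA1. Only SERPINE2 reached a 2-fold difference. In deposited intensity the groups did not overlap in 12 serpins (36.4%), against 43.1% of all genes. In bulk RNA of this kind, fewer cells that carry a transcript cannot be told apart from less of it in each cell.

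**Figure D1:**
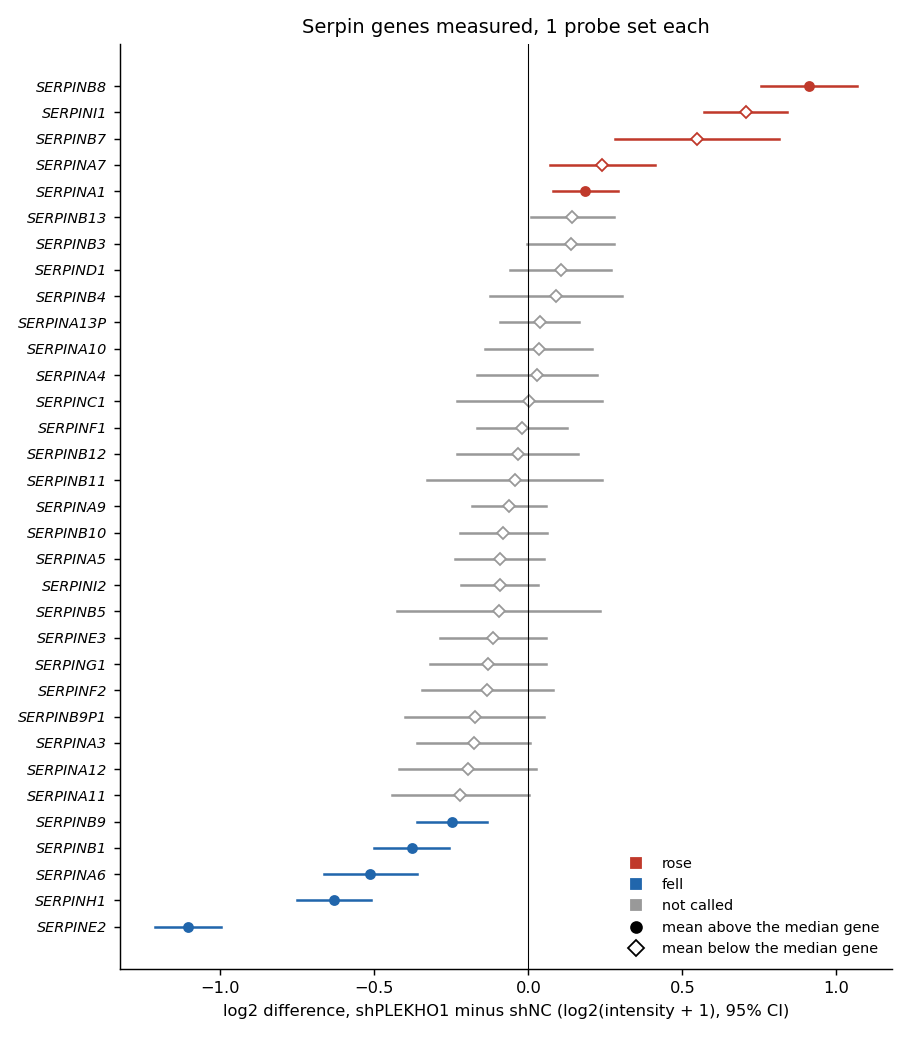
Log2 difference (x axis, shPLEKHO1 minus shNC) of each of the 33 serpin genes (y axis), with its 95% confidence interval; colour gives the call, filled circles mark a mean intensity above the median gene and open diamonds below. The differences run from -1.11 for SERPINE2 to 0.91 for SERPINB8, and the 23 genes that did not pass lie between -0.22 and 0.14.

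The bases before the transcription start of the 4 serpins with the largest differences are shown to give the sequence context of the genes that moved furthest. Each run is the 250 bases upstream of the most upstream start in the RefSeq promoter table (GRCh38.p14), 5′ to 3′ on the gene's own strand. Capitals mark matches on either strand to 6 motifs: the letters TATAAA for a TATA box, the letters CCAAT for the box of that name, the letters GGGCGG for a GC box, the letters TGANTCA for an AP-1 site, the letters GAANNTTC for the core of a heat shock element and the letters ACGTG for the core of a HIF site. SERPINE2 lies at chr2:224038641-224038890 on the minus strand and SERPINH1 at chr11:75562003-75562252 on the plus strand. SERPINB8 lies at chr18:63969831-63970080 and SERPINI1 at chr3:167735471-167735720, both on the plus strand.
SERPINE2: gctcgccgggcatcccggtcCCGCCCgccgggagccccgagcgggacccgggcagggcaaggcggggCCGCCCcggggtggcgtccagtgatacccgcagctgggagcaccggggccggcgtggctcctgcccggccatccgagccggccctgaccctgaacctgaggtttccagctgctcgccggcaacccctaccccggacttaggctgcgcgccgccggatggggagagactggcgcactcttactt
SERPINH1: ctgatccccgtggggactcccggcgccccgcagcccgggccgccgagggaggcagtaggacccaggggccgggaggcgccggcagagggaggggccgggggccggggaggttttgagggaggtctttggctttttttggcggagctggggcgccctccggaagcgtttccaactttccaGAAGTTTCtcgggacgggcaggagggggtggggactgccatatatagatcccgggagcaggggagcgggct
SERPINB8: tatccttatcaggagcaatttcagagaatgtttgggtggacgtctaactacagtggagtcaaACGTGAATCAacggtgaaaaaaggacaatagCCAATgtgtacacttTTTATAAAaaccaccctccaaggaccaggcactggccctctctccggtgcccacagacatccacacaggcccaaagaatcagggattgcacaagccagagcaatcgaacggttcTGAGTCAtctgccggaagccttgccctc
SERPINI1: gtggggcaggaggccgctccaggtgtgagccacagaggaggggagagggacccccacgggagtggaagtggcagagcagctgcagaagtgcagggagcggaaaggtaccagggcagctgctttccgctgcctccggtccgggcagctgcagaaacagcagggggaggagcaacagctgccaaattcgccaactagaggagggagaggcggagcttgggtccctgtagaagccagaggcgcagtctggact

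The SERPINE2 window held GC boxes that begin at -230 and -183 from the start, and none of the other letters searched. A further SERPINE2 start, not shown, held CCAAT letters repeatedly, a GC box at -50 and the letters ACGTG. The SERPINH1 window held the heat shock core at -71, a match found in 5.78% of 35097 promoter windows of this length. SERPINB8 held AP-1 matches at -185 and -28, and 6.57% of all windows hold at least 1. It also held a CCAAT box, overlapping TATAAA matches on both strands and an ACGTG that shares bases with the more distant AP-1 match. Over all windows, TATAAA occurred in 10.7%, CCAAT in 32.0%, GGGCGG in 42.6% and ACGTG in 18.5%. SERPINI1 held none of the letters searched. All 10 serpins that passed had an entry in the table, as did 25 of the 33. In the most upstream window, the AP-1 letters occurred in 1 of the 5 that rose and 0 of the 5 that fell, and the GC box in 1 and 3. For TATAAA the counts were 2 and 1, for CCAAT 1 and 2, for the heat shock core 1 and 1, and for ACGTG 1 and 0. AP-1 letters also occurred in this window of SERPINB5, SERPINB12, SERPINB13, SERPINE3 and SERPINI2, which did not pass. These counts depend on the start taken: further starts held AP-1 letters for SERPINB7, which rose, and a GC box for SERPINH1, which fell. A match is a string of letters and was not tested for binding.

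SERPINE2, also called protease nexin-1, is secreted, binds heparin-like chains on the cell surface and inhibits thrombin, urokinase and plasmin. With shNC it read 2245, 2053 and 2079, and with shPLEKHO1 972, 986 and 1019.9. The lowest control array was far above the highest shPLEKHO1 array. The mean went from 2126 ± 104 to 993 ± 24.6 (SD, n = 3), a fall of 53.5% (95% confidence interval 49.9% to 56.9%, log2 difference -1.11 ± 0.05, adjusted p = 3.11e-06). Of its 6 probe sets, 5 fell, between -0.79 and -1.23, and the dimmest was at -0.27 without passing (adjusted p = 0.0764 over all probe sets). SERPINE3, the other clade E gene measured, was dim and did not pass (-0.12 ± 0.07).

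SERPINI1, neuroserpin, is a secreted inhibitor of tissue plasminogen activator known mainly from neurons. It read 21.0, 20.3 and 21.7 with shNC and 34.0, 36.3 and 35 with shPLEKHO1. The 2 groups were tight and far apart, although the gene was dimmer than the median gene. It rose by 63.1% (48.5% to 79.1%, 0.71 ± 0.06, adjusted p = 6.02e-05), and its single probe set gave 0.46 with a pseudocount of 16. Its clade relative SERPINI2 did not pass (-0.09 ± 0.05).

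SERPINH1, known as HSP47, inhibits no protease: it resides in the endoplasmic reticulum and chaperones procollagen. It read 1664, 1439.8 and 1481 with shNC and 975, 1018 and 1005 with shPLEKHO1. The lowest control array exceeded the highest shPLEKHO1 array, and the control arrays were the more scattered. The means were 1528 ± 119.6 and 999 ± 22.1 (SD, n = 3), a fall of 35.4% (29.8% to 40.5%, -0.63 ± 0.05, adjusted p = 5.67e-05). All 3 of its probe sets fell, between -0.63 and -0.76. Fibroblasts are rich in SERPINH1: the 5 fibroblast markers summed to 112 to 121 with shNC and 127 to 150 with shPLEKHO1, all below the median gene, and their part in the SERPINH1 result was not tested.

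**Figure D2:**
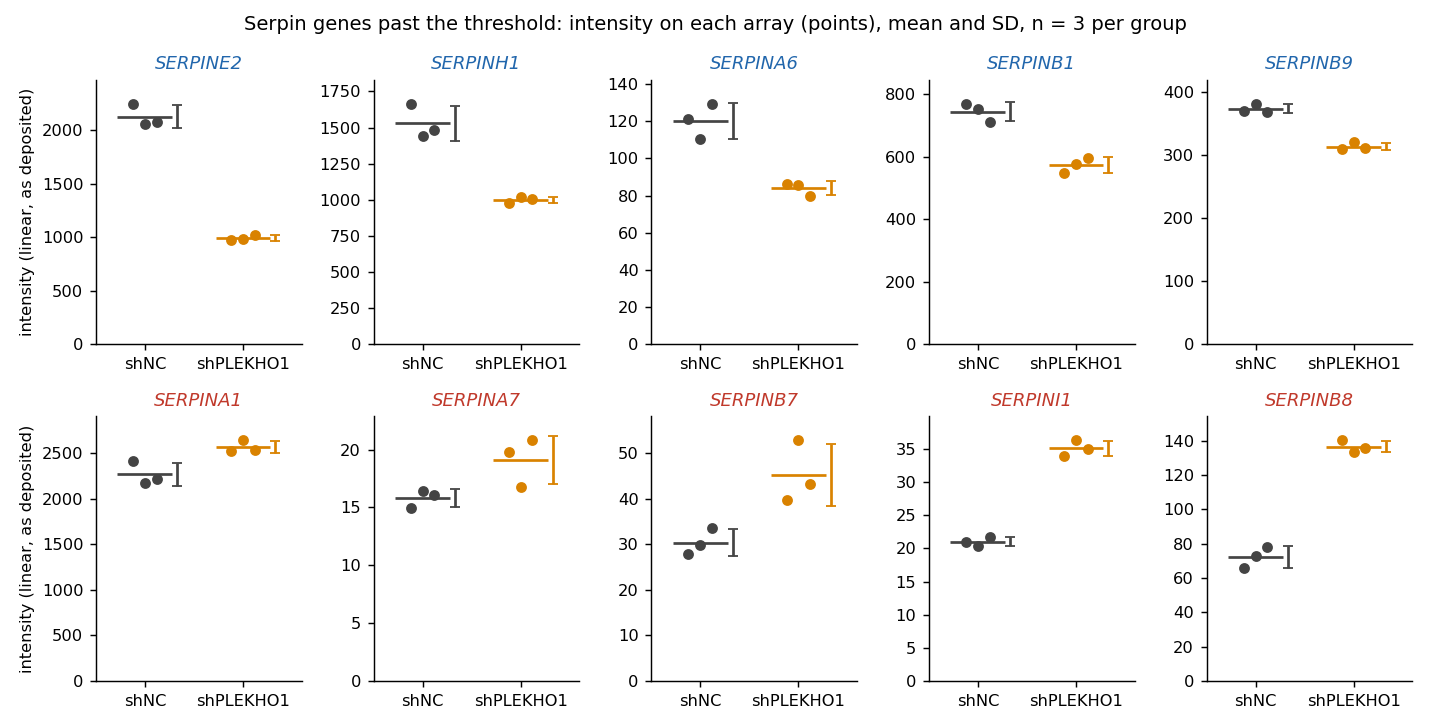
Deposited intensity (y axis, linear, from 0) of the 10 serpins that passed, in the shNC and shPLEKHO1 groups (x axis); points are arrays, horizontal lines are means and bars are SD, n = 3, with titles of genes that fell in blue and of those that rose in red. No gene has overlapping groups, and the gap is widest relative to the level for SERPINE2, SERPINB8 and SERPINI1.

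Among the clade B serpins, which lack a classical signal peptide and guard the cytoplasm and nucleus against proteases, 2 of 12 rose and 2 fell. SERPINB8, an inhibitor of the convertase furin, read 65.8, 73.0 and 78.1 with shNC and 140.2, 134 and 136 with shPLEKHO1. The lowest treated array was well above the highest control. It rose by 88.2% (68.9% to 109.7%, 0.91 ± 0.07, adjusted p = 3.57e-05). Of its 4 probe sets 3 rose (0.49 to 0.91) and the other was at -0.07, and the mean of all 4 was at 0.50. SERPINB7, or megsin, first known from mesangial cells of the kidney, was dim, with 27.8, 29.8 and 33.5 against 39.7, 52.7 and 43.2. It rose by 46.1% (21.5% to 75.7%, 0.55 ± 0.11, adjusted p = 0.00707). The treated arrays of SERPINB7 were spread more widely than the controls, its other probe set was at 0.14 without passing, and the mean of both was at 0.34.

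SERPINB1, an inhibitor of neutrophil elastase and related granule proteases, read 769.5, 751 and 711 with shNC and 547, 578 and 596 with shPLEKHO1. Its single probe set fell by 23.1% (16.4% to 29.3%, -0.38 ± 0.05, adjusted p = 0.000838). SERPINB9, which inhibits granzyme B and so protects cells from cytotoxic lymphocytes, read 369.7, 382 and 369 against 309, 320.5 and 311. These arrays were close within each group and did not overlap. It fell by 15.8% (8.94% to 22.2%, -0.25 ± 0.05, adjusted p = 0.00518). A dimmer SERPINB9 probe set fell much further, from 93.9 ± 2.49 to 36.8 ± 4.46 (SD, n = 3; -1.34 ± 0.10), the remaining 2 did not pass (-0.31 and 0.08), and the mean of all 4 was at -0.46. The size of the SERPINB9 fall therefore depends on the probe set.

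**Figure D3:**
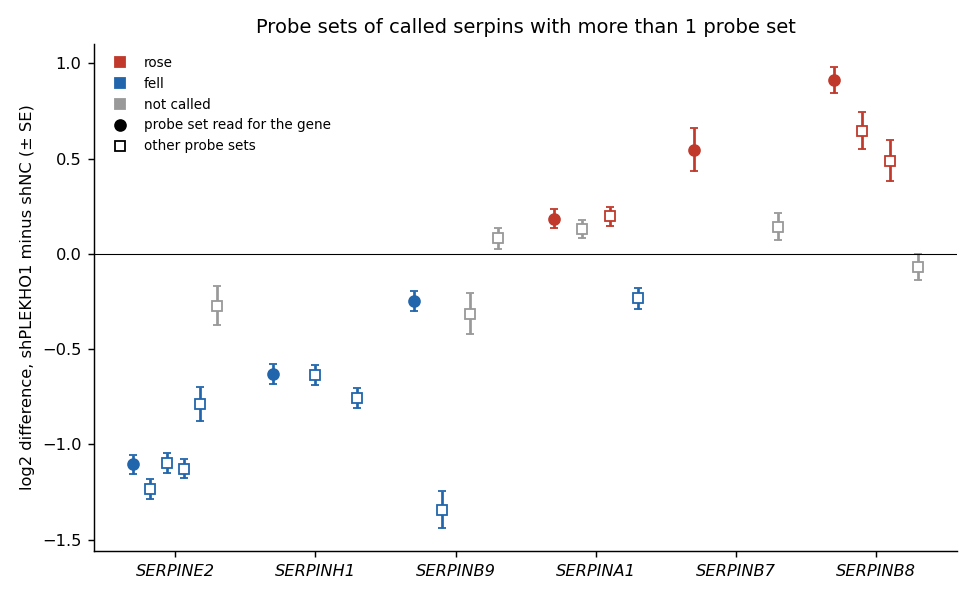
Log2 difference ± SE (y axis, shPLEKHO1 minus shNC) of every probe set of the 6 called serpins that have more than 1 (x axis), from brightest to dimmest within a gene; filled circles are the probe set read for the gene and colour gives its call over all probe sets. SERPINH1 probe sets lie together between -0.63 and -0.76, whereas those of SERPINB9 spread from -1.34 to 0.08 and those of SERPINA1 lie on both sides of 0.

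Of the 11 clade A genes, 2 rose and 1 fell. SERPINA6, corticosteroid-binding globulin, is a hormone carrier. It read 121, 110.2 and 129 with shNC and 86.3, 85.7 and 79.6 with shPLEKHO1, without overlap, and fell 1.43-fold (interval 22.2% to 36.9% lower, log2 -0.51 ± 0.07, adjusted p = 0.000553). SERPINA7, the thyroxine-binding globulin, read 14.9, 16.4 and 16.1 against 19.8, 16.7 and 20.8. One treated array lay just above the controls, and the rise of 18.1% (0.24 ± 0.07, adjusted p = 0.0368) was on a dim gene. The SERPINA7 call was lost when any array other than shPLEKHO1 replicate 2 was left out (adjusted p = 0.0727 to 0.104), and over all alternatives its adjusted p ranged from 0.00832 to 0.104.

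SERPINA1, alpha-1 antitrypsin, is the main plasma inhibitor of neutrophil elastase. It read 2412, 2172 and 2211 with shNC and 2526, 2638 and 2534 with shPLEKHO1. The highest control array came close to the lowest treated array. The rise was 13.7% (5.64% to 22.4%, 0.19 ± 0.05, adjusted p = 0.0150). It was the only serpin with probe sets past the threshold in both directions: of 4, 2 bright ones rose (0.19 and 0.20), a further bright one was at 0.13 without passing, and a dim one fell (-0.23). The mean of the 4 SERPINA1 probe sets was at 0.07 and did not pass (adjusted p = 0.183). The SERPINA1 call was also lost without shNC replicate 2 (adjusted p = 0.0599) and without shNC replicate 3 (0.0562), in a range from 0.000101 to 0.183 over all alternatives. Background probe sets, which have no target, also read higher with shPLEKHO1: all 23 had the higher mean there, 7 without overlap between groups. The brightest, with a GC count of 25, read 1936, 1923 and 1920 with shNC and 2293, 2096 and 2209 with shPLEKHO1, a mean 14.2% higher before normalization. At a GC count of 21 the mean was 9.7% higher, at 15 it was 2.5% higher and at 10 it was 0.1% higher. The SERPINA1 rise of 13.7% was taken after normalization, so the 2 are not on the same footing. The part of this shift in the SERPINA1 result was not tested.

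Several serpin genes lie next to each other. On chromosome 6, SERPINB1 and SERPINB9 both fell and the pseudogene SERPINB9P1, between them among the measured genes, was at -0.17 ± 0.10 without passing. On chromosome 18, 9 clade B genes were measured, and SERPINB7 and SERPINB8 rose. SERPINB10, between them among the measured genes, was dim and did not pass (-0.08 ± 0.06). On chromosome 14, 10 clade A genes were measured, and the neighbours SERPINA6 and SERPINA1 moved in opposite directions. The other 8 of that group did not pass.

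**Figure D4:**
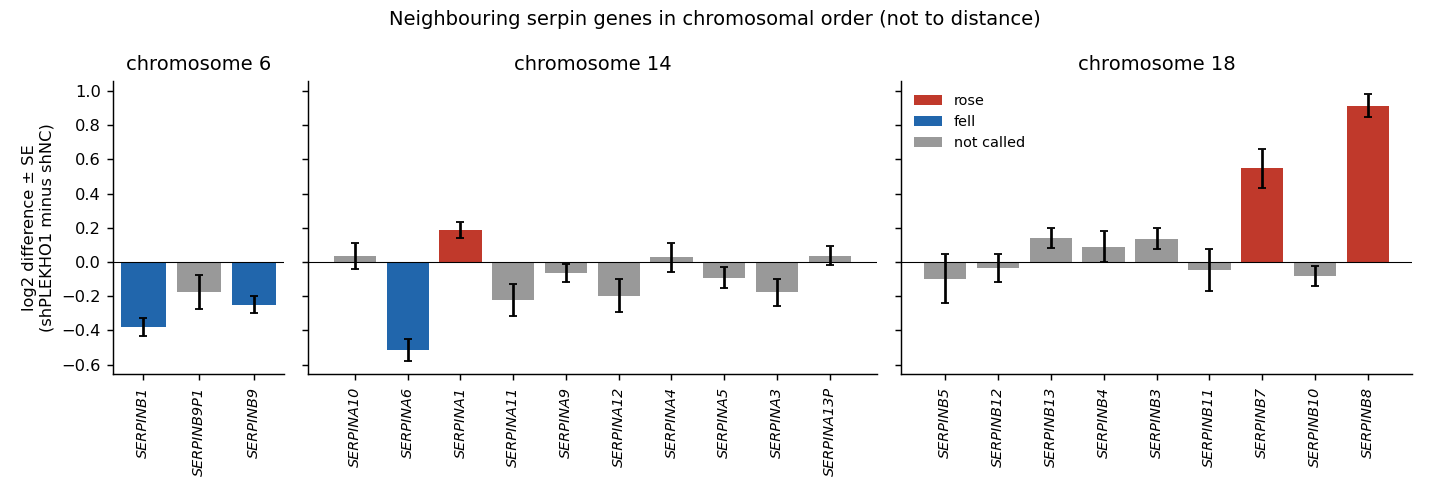
Log2 difference ± SE (y axis, shPLEKHO1 minus shNC) of serpins that neighbour each other on chromosomes 6, 14 and 18, in chromosomal order among the genes measured (x axis, not to distance), coloured by call. The 2 called genes on chromosome 6 both fell, the 2 on chromosome 18 both rose, and the 2 on chromosome 14 went opposite ways.

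The 23 serpins that did not pass had log2 differences from -0.22 to 0.14 and intensities from 6.75 to 64.3 on single arrays. All 23 were below the median gene intensity of 81.7, and so were SERPINA7, SERPINB7 and SERPINI1. The 7 serpins above the median all passed. Of all genes above the median 55.5% passed. The 23 background probe sets, 1 per GC count, read from 4.72 to 1926 with shNC and from 4.85 to 2200 with shPLEKHO1, so a dim intensity alone does not tell whether a gene is expressed. SERPINC1, antithrombin, was at 12.4 ± 2.11 with shNC and 12.4 ± 0.774 with shPLEKHO1 (SD, n = 3), and the interval of its log2 difference ran from -0.23 to 0.24. SERPING1, the C1 inhibitor, was at 10.8 ± 0.564 and 9.91 ± 1.28 (-0.32 to 0.06). SERPINF1, the pigment epithelium-derived factor, was at 9.25 ± 0.682 and 9.17 ± 0.590 (-0.17 to 0.12). SERPINB5, maspin, was at 29.6 ± 2.38 and 28.2 ± 6.94 (-0.43 to 0.23). SERPINA12 and SERPINA3 passed as falls only without shPLEKHO1 replicate 1 (-0.30, adjusted p = 0.0176, and -0.26, adjusted p = 0.0253), against -0.20 and -0.18 with all arrays. SERPINB13 and SERPINB3 were the non-overlapping serpins that did not pass: SERPINB13 read 15.6, 15.8 and 14.3 against 16.8, 16.8 and 17.5, and SERPINB3 read 39.6, 37.5 and 37.9 against 45.9, 40.9 and 40.1.

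Genes that act with serpins were read from 9 lists of proteases, receptors, cofactors and other inhibitors, 159 measured genes in all, of which 21 rose (13.2%) and 36 fell (22.6%). The 35.8% that passed is close to the 34.1% of all genes. In the plasminogen activation list, 2 of 13 genes rose, 2 fell and the median log2 difference was -0.0050; the share that passed was 30.8%. Both activators that SERPINE2 and SERPINI1 are known to inhibit fell. PLAU, urokinase, read 606, 583 and 589.9 with shNC and 299, 308 and 282 with shPLEKHO1, which is 2.00-fold lower (-0.997 ± 0.05), a fall seen in each of 3 probe sets. PLAT, tissue plasminogen activator, was 2.16-fold lower (-1.11 ± 0.10), with means of 76.3 ± 4.10 and 35.1 ± 5.22 (SD, n = 3) and all 7 probe sets down. PLAUR, the urokinase receptor, went the other way and was 2.13-fold higher (1.09 ± 0.04), at 429, 407 and 413 against 864, 927 and 889, with all 5 probe sets up. PLGRKT, a plasminogen receptor, rose too (0.45 ± 0.04).

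Of 12 heparan sulfate proteoglycans, whose chains bind SERPINE2 and other heparin-dependent serpins, 6 fell, 0 rose and the median was -0.13. The share that passed was above the 34.1% of all genes. It was below the 55.5% of genes above the median intensity, where all but 3 of the list lay. By direction, 18.1% of all genes rose and 16% fell. All 4 syndecans were among the 6 proteoglycans that fell. SDC1 was 3.31-fold lower (-1.73 ± 0.06), at 1096, 1035 and 1100.3 against 344, 339 and 296. SDC4 was 1.79-fold lower (-0.84 ± 0.05), SDC2 was 1.53-fold lower (-0.62 ± 0.05), and all probe sets of these 3 syndecans fell. SDC3 was 3.15-fold lower (-1.66 ± 0.19) by the brighter of its 2 probe sets, and the mean of both was at -0.81.

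Complexes of serpins with proteases are taken up by receptors of the LDL receptor family. The list took 10 receptors of this family and related genes, and whether each takes up serpin complexes was not tested. Of these 10 genes 5 fell, 0 rose and the median was -0.16. Here too the share that passed lay between the 34.1% of all genes and the 55.5% of genes above the median intensity. All but 4 of the list were above that median. By direction, 18.1% of all genes rose and 16% fell. LRP8 was at 0.10 ± 0.05 by its brighter probe set, but with the mean of its 2 probe sets it was at 0.23 and passed (adjusted p = 0.00389), so that 1 gene of the list rose in that setting. VLDLR fell most (-0.70 ± 0.05), from 563, 545 and 558 to 329, 357 and 341, followed by SORL1 (-0.64 ± 0.10) and LRP5 (-0.45 ± 0.08). LRP6 fell by its brightest probe set (-0.42 ± 0.05) but had 1 probe set up and 1 down, and averaging its 3 probe sets gave 0.01. LRP1, the receptor best known for clearing SERPINE2 complexes, did not pass (0.03 ± 0.08); it falls outside the rule for naming genes and was chosen after its value was seen.

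Of 22 genes that modify or fold collagen alongside SERPINH1, 10 fell, 4 rose and the median was -0.06. The share that passed was 63.6%, against 34.1% of all genes and 55.5% of those above the median intensity, where all but 2 of the list lay. P3H4, a component of the lysyl hydroxylation complex, was 2.25-fold lower (-1.17 ± 0.07) with all 3 probe sets down. The lysyl hydroxylase PLOD1 (-0.51 ± 0.05) and the collagen galactosyltransferase COLGALT1 (-0.40 ± 0.05) fell as well. The hydroxylases did not all go one way. PLOD2, a further lysyl hydroxylase, rose from 3171 ± 82.4 to 4299 ± 179.7 (SD, n = 3, log2 0.44 ± 0.06) with all 4 probe sets up. The prolyl hydroxylase subunits P4HA2 (0.20 ± 0.04) and P4HA3 (0.30 ± 0.07) rose too. The subunits P4HB (-0.22 ± 0.04, all 6 probe sets down) and P4HA1 (-0.16 ± 0.05, limma adjusted p = 0.0454) fell. The P4HA1 call was lost with each probe set tested. PLOD2 and these subunits were named after their values were seen. The fourth rise was TMEM38B, an ion channel of the endoplasmic reticulum (0.36 ± 0.05).

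**Figure D5:**
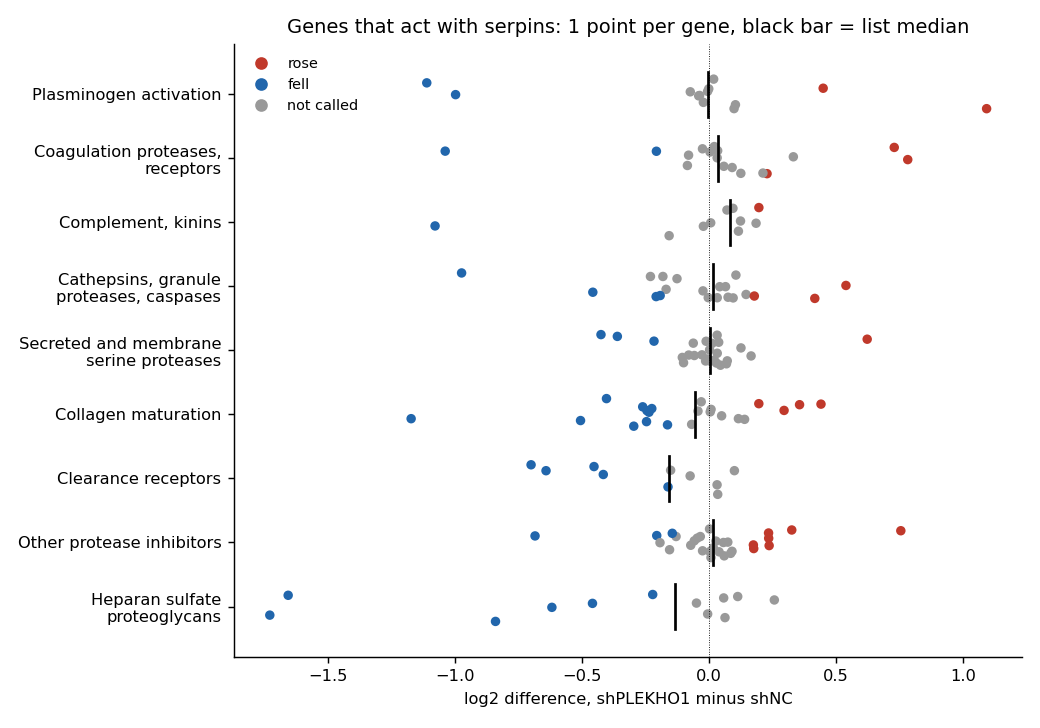
Log2 difference (x axis, shPLEKHO1 minus shNC) of the 159 genes of the 9 lists (y axis), 1 point per gene and list, coloured by call, with the median of each list as a black bar; vertical scatter within a list has no meaning. Heparan sulfate proteoglycans (median -0.13) and clearance receptors (median -0.16) hold 6 and 5 genes that fell and 0 that rose. Over all genes 34.1% passed, and 55.5% of those above the median intensity. Every list has points on both sides of 0.

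The 17 measured coagulation proteases and receptors held 3 rises and 2 falls (median 0.03), a share of 29.4% against 34.1% of all genes. F2R, the thrombin receptor PAR1, was 2.05-fold lower (-1.04 ± 0.09), at 59.1, 53.3 and 63.1 against 30.8, 28.8 and 24.5. Thrombomodulin, THBD, which turns thrombin into an activator of protein C, rose (0.78 ± 0.10), as did the receptor F2RL2 (0.73 ± 0.10) and the protein C receptor PROCR (0.23 ± 0.04). The 10 complement and kinin genes held 1 rise and 1 fall (median 0.08), a share of 20.0%, below that of all genes. C1RL, a protease related to C1r, was 2.11-fold lower (-1.08 ± 0.06). CFB, complement factor B, was higher by 0.20 ± 0.05, the only rise of the list and a call lost in 7 of 16 alternatives (adjusted p = 0.0109 to 0.399), among them each one that left out an array other than shNC replicate 2 and shPLEKHO1 replicate 2.

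Of 20 cathepsins, granule proteases and caspases 3 rose, 4 fell and the median was 0.02. The cathepsins CTSH (-0.97 ± 0.05) and CTSV (-0.46 ± 0.05) fell, while CASP4 (0.54 ± 0.06) and CASP8 (0.42 ± 0.06) rose. The cathepsins did not all go one way, since the remaining rise was CTSB (0.18 ± 0.05, 3 of 4 probe sets up). The mean of the 4 CTSB probe sets was at 0.11 and did not pass (limma adjusted p = 0.0787). For CTSH 1 of 2 probe sets fell, and their average was -0.46. Of 26 secreted and membrane serine proteases 1 rose, 3 fell and the median was 0.0040, a share of 15.4%. Without shPLEKHO1 replicate 2 the count that rose was 3, and it was 2 with the mean of probe sets, with array weights or with the dimmest genes left out. PRSS23 rose (0.62 ± 0.05; 4 probe sets up, 1 down), and PCSK5 (-0.42 ± 0.06), DPP4 (-0.36 ± 0.05) and HTRA1 (-0.22 ± 0.04) fell. FURIN, the target of SERPINB8, did not pass (-0.06 ± 0.06); it too was chosen after its value was seen.

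Of 29 other protease inhibitors, 7 were up and 3 down past the threshold (median 0.02), a share of 34.5% against 34.1% of all genes. The count of 7 was 4 without shNC replicate 1 and also 4 without shPLEKHO1 replicate 2. LXN, latexin, an inhibitor of carboxypeptidases, rose (0.76 ± 0.07), as did TFPI2 (0.33 ± 0.05), a Kunitz-type inhibitor of plasmin. TFPI, which blocks the tissue factor pathway, was higher by 0.24 ± 0.05, but only 2 of its 3 probe sets were up and the third was down, and the average of 0.06 did not pass (adjusted p = 0.295). CD109, a relative of alpha-2-macroglobulin, fell by its brightest probe set (-0.68 ± 0.05), whereas its other 2 probe sets rose and the mean of all 3 was at 0.27.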

How the data were processed

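Total RNA of 786O cells was hybridised to 6 single-colour Affymetrix arrays. The authors deposited 1 linear intensity for each probe set of an array. The submitters' processing notes name Affymetrix Expression Console; the version, the algorithm and whether arrays were normalized together are not given here. Of 49395 probe sets, 44988 had exactly 1 gene symbol and were no controls, which gave 18132 genes; 44961 matched RefSeq (GRCh38.p14) by Entrez identifier. Intensities were transformed to log2(intensity + 1) and quantile-normalized over all probe sets. The fit used lmFit and eBayes (limma 3.58.1, R 4.3.3) with group as its only term, and p-values were adjusted over the 18132 genes by Benjamini-Hochberg, with 0.05 as the threshold. A pseudocount and remaining background understate changes of dim genes. The steps were tested on simulated data.

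Named genes are PLEKHO1, serpins that passed or lie above the median gene, some well-known plasma and tissue serpins, and up to 4 called genes with the smallest p per list. Other serpins, and LRP1, LRP8, FURIN, CTSB, PLOD2, P4HA1, P4HA2, P4HA3 and P4HB, were named after their values were seen. The members and lists were chosen with earlier results of these data known. Alternatives were a pseudocount of 0 or 16, no further normalization, median centring, leaving out the lowest 30% of genes, the mean of probe sets, each probe set, weights for arrays, eBayes with trend and robust options, a replicate block and leaving out each array.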

Additional observations from a re-analysis of the deposited data

How the results depend on the processing

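Of the 10 serpins that passed, 8 kept their direction and their side of the threshold in all 16 alternatives; SERPINA1 lost its call in 4, and SERPINA7 in 7 of the 15 that tested it, since it is among the dimmest 30% of genes. The count of serpins that fell was 5 to 7 and of those that rose 3 to 5 when 1 array was left out; 3 rose without shNC replicate 2 and without shNC replicate 3. With each probe set tested, which counts probe sets in place of genes, 9 serpin probe sets rose and 13 fell of 65, over all genes 7794 rose and 7064 fell, and in the 9 lists 72 rose and 81 fell. With the mean of probe sets, LRP6 (0.0143) and CD109 (0.27) changed sign. SERPIND1 passed only with that mean (0.16, adjusted p = 0.0459). The fall of PLEKHO1 passed in all 16 alternatives (adjusted p = 0.00265 to 0.0427).

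The groups share replicate numbers. Deviations of arrays with the same number correlated at -0.164, -0.156 and -0.047, so no shared effect of the number was visible. Deviations from a mean of 3 arrays depend on each other, so these values cannot show whether arrays were handled in pairs. With the number as a replicate block, 3 serpins rose and 5 fell, with the calls of SERPINA1 (adjusted p = 0.0596) and SERPINA7 (adjusted p = 0.0579) lost, and 2772 genes rose and 2485 fell in all, against 3289 and 2901 without it. Of the other protease inhibitors 4 rose with the block, against 7.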

Other observations

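A further 5 probe sets are annotated to both SERPINB3 and SERPINB4, the closely similar squamous cell carcinoma antigens, and were left out of the gene tests. The brightest of them read 65.2, 67.4 and 67.0 with shNC and 66.0, 66.4 and 64.8 with shPLEKHO1.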
